A study of Mus musculus with 36 samples.

Results

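The SoxE genes *Sox8*, *Sox9* and *Sox10* were followed across the 9 groups of cells of the study. They were chosen by gene symbol, a rule that uses none of their values, and are 3 of the 22761 genes in the table. RNA was sequenced from 36 samples of sorted mouse kidney progenitors, with 4 samples in each group. The ex-fetu groups were UB cells of the ureteric bud, NP cells (nephron progenitors) and SP cells (progenitors of the stroma) from CD1 embryos with titles of E11.5 or E12.5. Each of these samples pooled the kidneys of all embryos of a mouse. The groups made from mouse embryonic stem cells (mESC) were the engineered ureteric bud (eUB, titled iUB), the induced nephron progenitor (iNP) and the induced stromal progenitor (iSP), each sample being the embryoid bodies of a batch of differentiation. UB cells had been sorted as RET+/EpCAM+, NP and iNP cells as ITGA8 high/PDGFRA low, and SP and iSP cells as ITGA8 low/PDGFRA high. CD31+ endothelial and EpCAM/RET+ cells had been gated out before NP, iNP, SP and iSP cells were taken. iNP and iSP cells came from E14 mESC, and eUB cells from an mCherry reporter mESC line.

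The eUB cells were gated as EpCAM+/mCherry+, so their level of a SoxE gene was part of how they were chosen. The labels and the RNA methods name a *Sox9-mCherry* line, whereas the only reporter line whose making is described carries mCherry at *Sox8*, and the sort of eUB cells is itself shown with a SOX8-mCherry profile. The sources thus disagree on which of the 2 genes set the gate of the sequenced cells, and no such gate was used for ex-fetu UB cells. Differences of *Sox8* and *Sox9* in eUBs from other groups are therefore given as measured, and the gate and the cells cannot be told apart in them. The stage labels of UB samples also disagree. Samples with E11.5 in the title have E12.5 as the stage of the cell source, and the reverse. The titles were used here, and with the other label every difference between the 2 UB stages changes sign. The other label would also exchange the 2 values of each comparison of eUBs with ex-fetu UB (for *Sox9*, 0.20 and 0.69 on the log2 scale), and the comparisons of ex-fetu UB with NP or SP, and of their changes, would then be between stages.

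SoxE proteins are transcription factors that bind DNA through an HMG box, a domain they share with the rest of the Sox family. *Sox8* and *Sox9* are active in the tips of the branching ureteric bud, where they act together downstream of the receptor RET. *Sox9* is also the master regulator of cartilage, where it switches on collagen genes such as *Col2a1*. *Sox10* is best known for neural crest and the glia and pigment cells that come from it.

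The coding sequences are shown where the 3 genes are most alike, because reads from such a stretch are those that could be assigned to the wrong member. In GENCODE vM21 (GRCm38), *Sox8* (ENSMUSG00000024176) is on the minus strand at chr17:25565892-25570686. *Sox9* (ENSMUSG00000000567) is on the plus strand at chr11:112782224-112787760. *Sox10* (ENSMUSG00000033006) is on the minus strand at chr15:79154908-79165240. The stretch of 210 coding bases with the most identical bases lies across the HMG box, in exons 1 and 2 of the transcripts of *Sox8* and *Sox9* and in exons 2 and 3 of that of *Sox10*. For *Sox8* the exon pieces are chr17:25570110-25570243 and chr17:25568985-25569060, for *Sox9* chr11:112782882-112783015 and chr11:112783809-112783884, and for *Sox10* chr15:79163289-79163422 and chr15:79159328-79159403. The sequences are printed in the direction of transcription, with capitals at the bases where the genes are not all the same.
Sox8: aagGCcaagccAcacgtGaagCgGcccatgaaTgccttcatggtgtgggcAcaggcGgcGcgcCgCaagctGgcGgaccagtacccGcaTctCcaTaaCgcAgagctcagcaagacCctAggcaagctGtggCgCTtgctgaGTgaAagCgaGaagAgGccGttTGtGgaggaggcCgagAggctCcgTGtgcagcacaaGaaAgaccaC
Sox9: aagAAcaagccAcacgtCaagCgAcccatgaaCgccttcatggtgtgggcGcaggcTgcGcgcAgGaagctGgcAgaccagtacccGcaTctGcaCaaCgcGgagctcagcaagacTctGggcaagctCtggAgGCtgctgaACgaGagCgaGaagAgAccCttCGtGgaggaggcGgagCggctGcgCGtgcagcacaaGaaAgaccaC
Sox10: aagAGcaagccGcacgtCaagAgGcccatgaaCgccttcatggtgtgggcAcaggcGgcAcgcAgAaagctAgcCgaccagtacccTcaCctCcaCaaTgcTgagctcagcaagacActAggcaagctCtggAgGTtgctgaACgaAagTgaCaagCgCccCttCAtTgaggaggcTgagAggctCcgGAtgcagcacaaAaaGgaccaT

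In this stretch 165 of 210 bases were the same in all 3 genes and 45 were not. *Sox8* and *Sox9* shared 86.2% of its bases, *Sox9* and *Sox10* 84.3%, and *Sox8* and *Sox10* 82.9%. The longest run without a difference was 26 bases. Over whole transcripts, none of the 3115, 4086 and 3043 distinct stretches of 50 bases of *Sox8*, *Sox9* and *Sox10* occurred in the sense direction in a transcript of another gene, the other members included. The antisense RNA gene *2810468N07Rik* shares 329 exon bases with *Sox8* on the opposite strand. Its group means were between 0.567 and 4.62 normalised CPM. The use of strand in counting is not given in the sources used here, so reads of these shared bases cannot be told apart. No exon of another gene overlaps *Sox9* or *Sox10*.

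The unit throughout is the normalised CPM deposited by the authors, which is CPM scaled by edgeR's normalisation factor. Every value was a whole multiple of that of 1 read, and libraries held 13.0 to 52.5 M reads on genes. A floor of 3 reads was equal to 0.0605 to 0.223 normalised CPM. Such floors cover counting error only. Markers of each type were highest in cells of that label: the summed level of 10 UB genes was 2558 to 5071 in ex-fetu UB and 2980 to 3403 in eUB libraries, against 28.3 to 202 elsewhere. The sum of 10 NP genes was 1892 to 2926 in ex-fetu NP and 850 to 1272 in iNP libraries. The sum of 8 SP genes was 3833 to 5973 in ex-fetu SP and 5231 to 5536 in iSP libraries. The first replicate of each E12.5 group stood apart. E12.5_UB replicate 1 had 2558 in UB genes against 4057 to 4246 in the others of its group, with 594 against 63.8 to 106 in NP genes and 972 against 192 to 211 in SP genes. E12.5_NP replicate 1 had the lowest NP sum (1892 against 2751 to 2926), and E12.5_SP replicate 1 the lowest SP sum (3865 against 5797 to 5973). Differences of the 3 genes between groups that rest on these libraries are given with and without them. Comparisons of such differences between cell types, the values of other genes and the levels per length are from all libraries. Comparisons that name the same group share its libraries. Ex-fetu UB libraries also held RNA of 8 macrophage genes (summed level 47.4 to 106), which was 2.46 or less in all other libraries. In bulk samples such as these, fewer cells of a type and less RNA per cell cannot be told apart.

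**Figure D1:**
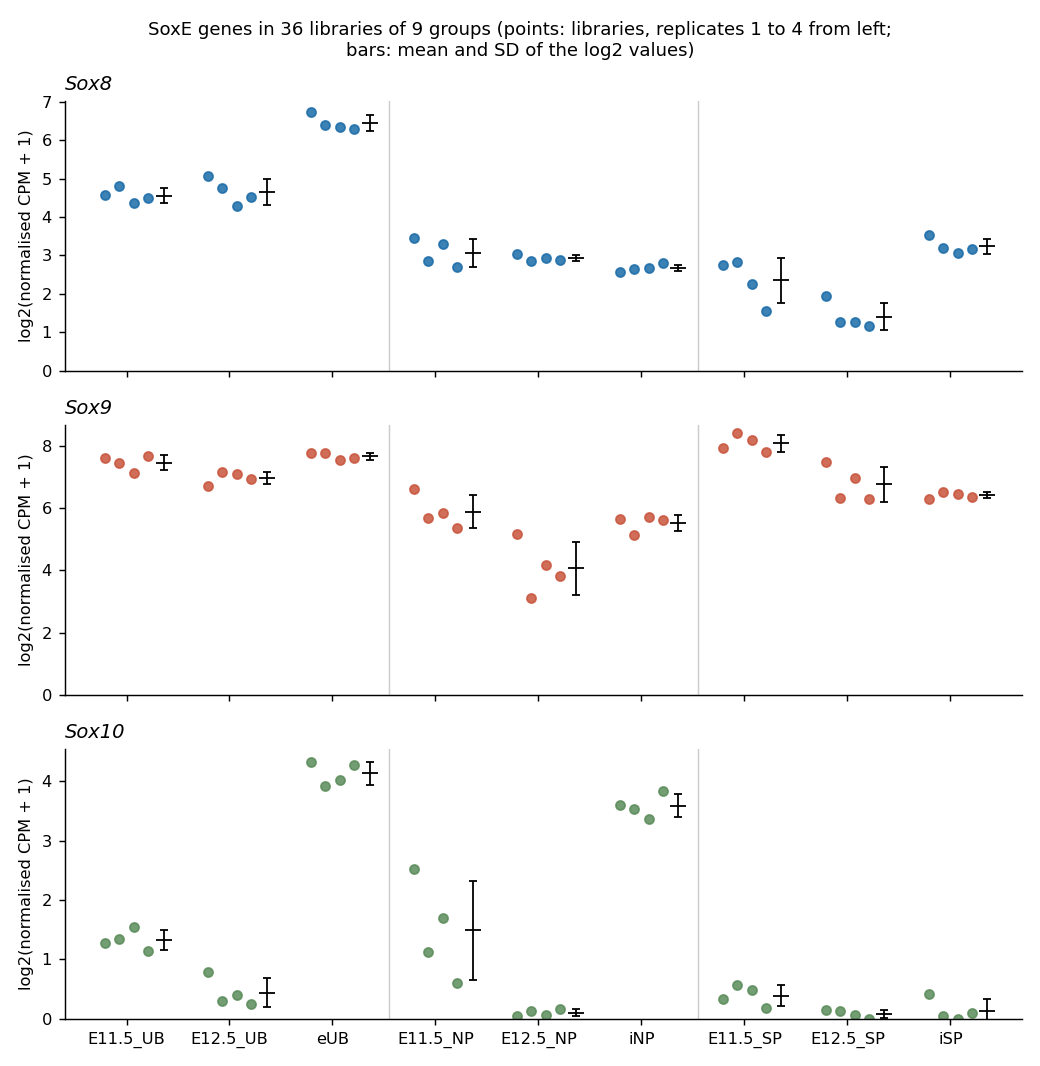
Level of each SoxE gene, as log2(normalised CPM + 1) on the vertical axis, in each of 36 libraries; points are libraries in the order of replicates 1 to 4, and bars give the mean and SD of the 4 log2 values of a group. *Sox8* was highest in eUBs (77.3 to 106 normalised CPM), *Sox9* in E11.5_SP (225 to 341) and *Sox10* in eUBs (14.1 to 18.9) and iNPs (9.31 to 13.3).

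*Sox8* was a gene of the ureteric bud in these samples, with more of it in eUBs than in any other group. Replicates 1 to 4 of the eUB group had 106, 83.5, 80.9 and 77.3 normalised CPM. The 4 E11.5_UB libraries had 22.8, 27.0, 19.5 and 21.6, and the 4 E12.5_UB libraries 32.4, 26, 18.4 and 21.9. Every eUB library was thus above every ex-fetu UB library, and the 2 ex-fetu stages overlapped. The group means were 86.9 ± 12.8 for eUB, 22.7 ± 3.17 for E11.5_UB and 24.7 ± 6.02 for E12.5_UB (SD, n = 4). On the log2(normalised CPM + 1) scale, eUBs exceeded E11.5_UB by 1.89 ± 0.12 (SE; adjusted p = 1.3e-06, limma), in a comparison where 60.5% of all genes tested were called. Against E12.5_UB the difference was 1.79 ± 0.17 (adjusted p = 7.9e-05; 44.4% of genes called). It was 1.93 without E12.5_UB replicate 1.

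In nephron progenitors *Sox8* was lower, with group means of 5.39 to 7.59 normalised CPM. The 4 E11.5_NP libraries had 9.94, 6.21, 8.78 and 5.44 normalised CPM, the E12.5_NP libraries 7.23, 6.28, 6.63 and 6.41, and the iNP libraries 4.96, 5.28, 5.39 and 5.92. The iNP libraries were all below the E12.5_NP libraries and overlapped those of E11.5_NP. Neither difference was called: -0.40 from E11.5_NP (95% interval -0.78 to -0.01, adjusted p = 0.0672; 64.7% of genes called) and -0.26 from E12.5_NP (interval -0.53 to 0.02, adjusted p = 0.115; 44.3% of genes called; -0.22 without E12.5_NP replicate 1). The first became a call in edgeR on the recovered reads (-0.52, adjusted p = 0.0443) and without E11.5_NP replicate 4 (-0.52, adjusted p = 0.0211), and both did after quantile normalisation (-0.80 and -0.63).

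Ex-fetu stromal progenitors had the lowest *Sox8*, and iSPs had more. The E11.5_SP libraries had 5.67, 6.13, 3.77 and 1.95 normalised CPM, the E12.5_SP libraries 2.82, 1.41, 1.39 and 1.24, and the iSP libraries 10.5, 8.09, 7.39 and 8.04. All iSP libraries were above all ex-fetu SP libraries. iSPs exceeded E11.5_SP by 0.89 ± 0.26 on the log2 scale (SE; adjusted p = 0.0124; 67.6% of genes called) and E12.5_SP by 1.83 ± 0.19 (adjusted p = 2.8e-05; 62.1% of genes called). The latter was 2.01 without E12.5_SP replicate 1. The antisense gene *2810468N07Rik* moved in the same direction, with means of 4.15 in iSP, 0.832 in E11.5_SP and 0.567 in E12.5_SP, and its part in the *Sox8* values was not tested. E11.5_SP replicate 4 was lowest of its group also for *Sox9*, for the cartilage gene *Col2a1* (207 against 456 to 582) and for the sum of UB genes (72.9 against 122 to 188), and had the highest sum of 7 erythroid genes (1246 against 57.9 to 216). Their part in the result was not tested.

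Between ex-fetu stages no *Sox8* difference was called. It was 0.09 in UB (interval -0.28 to 0.47, adjusted p = 0.715), and turned to -0.04 without E12.5_UB replicate 1. It was -0.94 in SP (interval -1.60 to -0.29, adjusted p = 0.0792), and became a call without E11.5_SP replicate 4 (-1.20, adjusted p = 0.0145) or without E12.5_SP replicate 1 (-1.12, adjusted p = 0.0266). It was -0.14 in NP (interval -0.53 to 0.26, adjusted p = 0.689), and -0.17 without E12.5_NP replicate 1. Of all genes tested, 26.5% were called between stages in UB, 8.52% in SP and 6.34% in NP.

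Within each origin, UB cells had more *Sox8* than the mesenchymal progenitors. At E11.5, UB exceeded NP by 1.49 ± 0.17 on the log2 scale (SE; adjusted p = 7.9e-06; 60.2% of genes called) and SP by 2.21 ± 0.26 (adjusted p = 3.7e-05; 53.6% of genes called). At E12.5, UB exceeded NP by 1.72 ± 0.18 (adjusted p = 6.9e-05; 32.7% of genes called) and SP by 3.25 ± 0.23 (adjusted p = 4.6e-06; 46.4% of genes called). Among mESC-derived cells, eUB exceeded iNP by 3.77 ± 0.12 (adjusted p = 1.0e-08; 52.2% of genes called) and iSP by 3.21 ± 0.13 (adjusted p = 1.7e-08; 64.7% of genes called). Without replicate 1 of both groups the E12.5 values were 1.62 and 3.29. The order of the mesenchymal types was not the same in the 3 origins. NP exceeded SP by 1.53 ± 0.18 at E12.5 (adjusted p = 1.5e-04; 34.8% of genes called), whereas iNP was below iSP by 0.57 on the log2 scale (log2 difference -0.57 ± 0.12, adjusted p = 0.00511; 30.7% of genes called). At E11.5 the difference of 0.72 between NP and SP was not called (adjusted p = 0.0692; 43.1% of genes called). It became a call in a fit of all 36 samples (adjusted p = 0.00643), after quantile normalisation (0.86, adjusted p = 0.029) and without E11.5_SP replicate 2 (0.88, adjusted p = 0.0406).

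In all, 18 of 18 comparisons of *Sox8* could be tested, with the first-named group higher in 11, lower in 1 and no call in 6. From the highest to the lowest mean the groups were eUB, E12.5_UB, E11.5_UB, iSP, E11.5_NP, E12.5_NP, iNP, E11.5_SP and E12.5_SP. Neighbours in this order had ranges that did not overlap at only 3 steps: eUB to E12.5_UB, E11.5_UB to iSP and E12.5_NP to iNP.

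**Figure D2:**
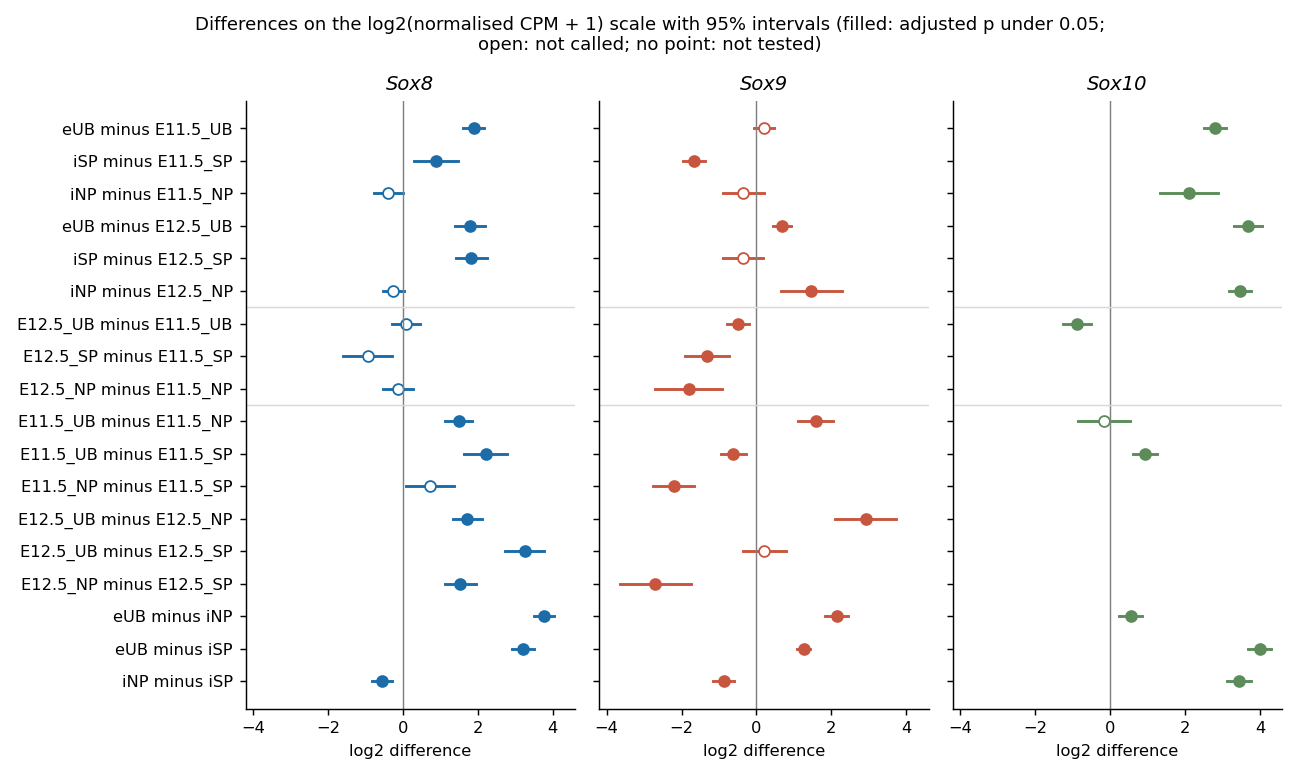
Difference of each SoxE gene in 18 comparisons, on the log2(normalised CPM + 1) scale (horizontal axis), with 95% intervals as lines; filled points had an adjusted p under 0.05, open points did not, and comparisons without a point were not tested. *Sox8* was 1.89 higher in eUBs than in E11.5_UB while *Sox9* differed by 0.20, and *Sox9* was 1.67 lower in iSPs than in E11.5_SP (log2 difference -1.67).

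*Sox9* was highest in a group other than the ureteric bud. The 4 E11.5_SP libraries had 244, 341, 290 and 225 normalised CPM, with a mean of 275 ± 51.8 (SD, n = 4). The E12.5_SP libraries had 178, 80.2, 126 and 77.4, and the iSP libraries 78.4, 91.5, 87.2 and 81.1. All E11.5_SP libraries were above those of each other group, eUBs included. On the log2 scale E11.5_UB was below E11.5_SP (log2 difference -0.62 ± 0.15, adjusted p = 0.00624), a call that was lost in the fit of all 36 samples (adjusted p = 0.0656). The sum of 10 UB genes was 72.9 to 188 in E11.5_SP and 4712 to 5071 in E11.5_UB, and its part in the level of *Sox9* was not tested.

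In UB cells the *Sox9* ranges of eUBs and E11.5_UB overlapped. The eUB libraries had 217, 218, 186 and 194 normalised CPM, the E11.5_UB libraries 194, 174, 141 and 205, and the E12.5_UB libraries 105, 142, 136 and 123. The difference of 0.20 between eUBs and E11.5_UB on the log2 scale was not called (95% interval -0.06 to 0.46, adjusted p = 0.164). It became a call after quantile normalisation (0.33, adjusted p = 0.0239). eUBs exceeded E12.5_UB by 0.69 ± 0.11 (SE; adjusted p = 0.00101), and by 0.60 without E12.5_UB replicate 1.

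NP cells had less *Sox9*, and its level differed widely between libraries of a group. The E11.5_NP libraries had 97.5, 50.7, 56.7 and 40.7 normalised CPM, the E12.5_NP libraries 34.8, 7.72, 17.0 and 13.2, and the iNP libraries 49.6, 34.6, 51.6 and 48.0. The iNP libraries overlapped E11.5_NP, with a log2 difference of -0.35 (interval -0.89 to 0.19, adjusted p = 0.228). They were 1.46 ± 0.36 above E12.5_NP (adjusted p = 0.00864), where the lowest iNP library and the highest E12.5_NP library were almost equal (34.6 and 34.8), and 1.83 above it without E12.5_NP replicate 1. In iSPs *Sox9* was below E11.5_SP without overlap (log2 difference -1.67 ± 0.13, adjusted p = 3.7e-06). Against E12.5_SP the difference was -0.36 (interval -0.90 to 0.18, adjusted p = 0.214), or -0.12 without E12.5_SP replicate 1.

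The order of the *Sox9* means was E11.5_SP, eUB, E11.5_UB, E12.5_UB, E12.5_SP, iSP, E11.5_NP, iNP and E12.5_NP. Neighbours overlapped at every step but that from E11.5_SP to eUB.

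*Sox9* fell between the stages in all 3 ex-fetu types as titled, by 0.49 in UB, by 1.31 in SP and by 1.81 in NP on the log2 scale. The adjusted p-values were 0.0218, 0.0161 and 0.0335. Without the first E12.5 replicate of each type the values were -0.40 (adjusted p = 0.00785), -1.55 (adjusted p = 0.00194) and -2.18 (adjusted p = 0.00416), while the count of all genes called rose from 3648 to 5982 in UB, from 1162 to 2889 in SP and from 850 to 2249 in NP. The calls were close to the threshold. In UB the call was lost in the fit of all 36 samples (adjusted p = 0.254) and without E11.5_UB replicate 1, 2 or 4 or E12.5_UB replicate 4 (adjusted p = 0.0533 to 0.0674). In SP it was lost without E11.5_SP replicate 2 or 3 or E12.5_SP replicate 4 (adjusted p = 0.0534 to 0.0583). In NP it was lost in edgeR on the recovered reads (adjusted p = 0.0576) and without any single E11.5_NP library or E12.5_NP replicate 3 or 4 (adjusted p = 0.0537 to 0.102).

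Between cell types of the same origin, *Sox9* was lowest in NP cells. UB exceeded NP by 1.59 ± 0.21 on the log2 scale at E11.5 (SE; adjusted p = 3.9e-05), by 2.91 ± 0.36 at E12.5 (adjusted p = 2.4e-04; 3.36 without replicate 1 of both groups) and by 2.14 ± 0.14 in mESC-derived cells (adjusted p = 9.9e-07). NP was below SP by 2.20 (log2 difference -2.20 ± 0.24, adjusted p = 7.9e-05) at E11.5 and by 2.7 (-2.7 ± 0.42, adjusted p = 8.0e-04) at E12.5, and iNP was below iSP by 0.88 (-0.88 ± 0.13, adjusted p = 6.1e-04). Same-numbered NP and SP libraries of E12.5 varied together, with correlations of their deviations from group means of 0.54 to 0.70. The sources used here do not say that they were paired. When the replicate number entered the model, 7961 genes were called between these groups in place of 4789, and the *Sox8* and *Sox9* calls stayed. Without replicate 1 of both groups the NP to SP values were 1.67 for *Sox8* and -2.83 for *Sox9*. The difference between UB and SP was not in the same direction in all 3 origins. Beside the lower level in UB at E11.5, it was 0.21 at E12.5 (interval -0.36 to 0.78, adjusted p = 0.533), or 0.53 (adjusted p = 0.0198) when replicate 1 was left out of both groups. eUB exceeded iSP by 1.26 ± 0.08 (adjusted p = 4.2e-07). Of 18 comparisons, 6 had the first-named group higher, 8 had it lower and 4 were not called. The share of all genes called ranged from 6.34% to 67.6% over these comparisons, as given for each beside *Sox8*.

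*Sox10* had the lowest level of the 3 genes per length in every group but iNP, where *Sox8* was lower (1.73 against 3.63 normalised CPM per kilobase). It was highest in eUBs and iNPs. The eUB libraries had 18.9, 14.1, 15.2 and 18.2 normalised CPM (255 to 514 reads), and the iNP libraries 11.1, 10.6, 9.31 and 13.3 (316 to 583 reads). The E11.5_UB libraries had 1.42, 1.53, 1.93 and 1.21, and the E12.5_UB libraries 0.737, 0.237, 0.320 and 0.193. The E11.5_NP libraries had 4.75, 1.18, 2.26 and 0.513. Every eUB library was therefore above every iNP library, and every iNP library above every ex-fetu library. In E12.5_NP (1 to 5 reads), E12.5_SP (0 to 5 reads) and iSP (0 to 7 reads) the gene was at or under 3 reads in 2, 3 and 3 of 4 libraries, and in E11.5_SP it had 5 to 20 reads. In order of the mean, ranges of neighbours were separate from eUB to iNP, from iNP to E11.5_NP and from E11.5_UB to E12.5_UB, and overlapped at the other steps.

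Only 10 of 18 comparisons of *Sox10* passed the filter of 1 normalised CPM in 4 of 8 libraries, and 6 of these did so through the higher group alone, in which a difference was bound to be found. In the other 4, eUBs exceeded E11.5_UB by 2.80 ± 0.13 on the log2 scale (SE; adjusted p = 1.8e-07), iNPs exceeded E11.5_NP by 2.10 ± 0.35 (adjusted p = 4.9e-04), and eUBs exceeded iNPs by 0.55 ± 0.14 (adjusted p = 0.0091). The difference between E11.5_UB and E11.5_NP was -0.16 (interval -0.86 to 0.54, adjusted p = 0.693), and turned to 0.19 without E11.5_NP replicate 1. Of those that passed through the higher group, the values were 3.69 for eUB against E12.5_UB, 3.48 for iNP against E12.5_NP, 3.99 for eUB against iSP and 3.44 for iNP against iSP. They were 0.93 for E11.5_UB against E11.5_SP and -0.89 for E12.5_UB against E11.5_UB. Without replicate 1 of the E12.5 group the values were 3.81 for eUB against E12.5_UB, 3.46 for iNP against E12.5_NP and -1.01 between UB stages. The added 1 keeps these log2 differences smaller than the change of a gene so low.

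Markers of neural crest, the usual source of *Sox10*, were set beside it. In E11.5_NP replicate 1, with the most *Sox10* (4.75), had the most *Foxd3* (2.03 against 0.239 to 0.725 normalised CPM), an early neural crest factor, and the most *Cdh19* (0.740 against 0.0336 to 0.469), a gene of Schwann cell precursors. The summed level of the 9 measured genes of the neural crest and glia list was 49.8 there and 22.0 to 29.0 in the other 3. In iNPs *Foxd3* was at 5.87, 5.02, 4.6 and 6.08, and *Sox2*, a factor of pluripotent and neural cells, at 28.2, 36.5, 27.9 and 26.2. *Sox2* was between 0.137 and 1.25 in E11.5_NP. Of the 6 genes of the list that could be tested between iNP and E11.5_NP without having passed the filter through 1 group only, 4 were higher and 2 lower, with a median log2 difference of 1.23 against 0.07 for all genes, of which 64.7% were called. Their part in the level of *Sox10* was not tested.

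In eUBs *Foxd3* and *Cdh19* were near 0 although *Sox10* was highest. *Cdh19* had no read in any eUB library, which allows up to 0.223 normalised CPM in the shallowest. *Foxd3* was at 0.668, 0.390, 0.172 and 0.177 normalised CPM. The list sum of 329 to 367 in eUBs came mainly from *Erbb3* (mean 257), a neuregulin receptor, and *Tfap2a* (77.1), which were at 454 and 96.1 in E11.5_UB as well. All 5 genes of this list that could be tested between eUB and E11.5_UB were lower in eUBs, with a median log2 difference of -0.97 against 0.02 for all genes, of which 60.5% were called. They included *Tfap2b*, with a mean of 4.21 in eUBs and 101 in E11.5_UB.

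**Figure D3:**
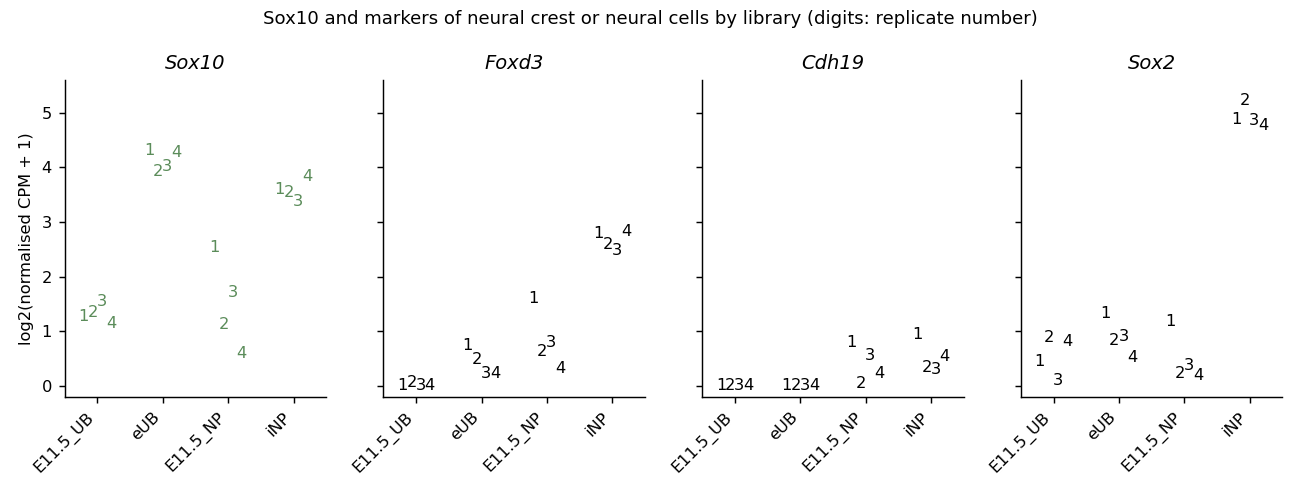
*Sox10* beside *Foxd3*, *Cdh19* and *Sox2* in 4 groups, as log2(normalised CPM + 1) on the vertical axis; each digit is a library and gives its replicate number. In E11.5_NP the order of the *Sox10* values (4.75, 1.18, 2.26 and 0.513 normalised CPM in replicates 1 to 4) has replicate 1 on top, as for *Foxd3* and *Cdh19*, while in eUBs *Cdh19* is at 0.

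Levels of the 3 genes can be compared with each other only per length, here as normalised CPM per kilobase of merged exons (3118, 4135 and 3051 bases for *Sox8*, *Sox9* and *Sox10*). On this scale *Sox9* was the most abundant member in the means of all 9 groups. The summed SoxE level was highest in eUBs, at 82.6 ± 7.46 (SD, n = 4), then in E11.5_SP (68.0 ± 13.0) and E11.5_UB (50.9 ± 7.0), and lowest in E12.5_NP (6.55 ± 2.95). Shares and ratios are given as the mean of those of the 4 libraries of a group. *Sox8* made up 33.6% of the sum in eUBs, 14.4% in E11.5_UB and 20.6% in E12.5_UB, but 2.04% in E11.5_SP and 1.96% in E12.5_SP. Its mean share was highest in E12.5_NP (36.5%), where the sum was lowest and the *Sox8* level was 2.13 against 27.9 in eUBs. By the group means, E12.5_NP (2.13 of 6.55) was not above eUBs (27.9 of 82.6). *Sox10* made up 22.2% in iNPs and 6.61% in eUBs, and at most 3.46% elsewhere. The ratio of *Sox9* to *Sox8* was 1.79 in eUBs (1.54 to 1.97 over libraries), against 5.98 in E11.5_UB (4.86 to 7.15) and 4.10 in E12.5_UB (2.45 to 5.57). It was 54.8 in E11.5_SP (32.4 to 87.0) and 7.67 in iSPs (5.64 to 8.91). Ratios of eUB and ex-fetu UB libraries did not overlap, nor did those of iSP and ex-fetu SP libraries. E12.5_NP was the only group in which the ratio fell below 1 in a library (0.928 to 3.63). Merged exons take all annotated transcripts as used, and which were used was not measured.

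**Figure D4:**
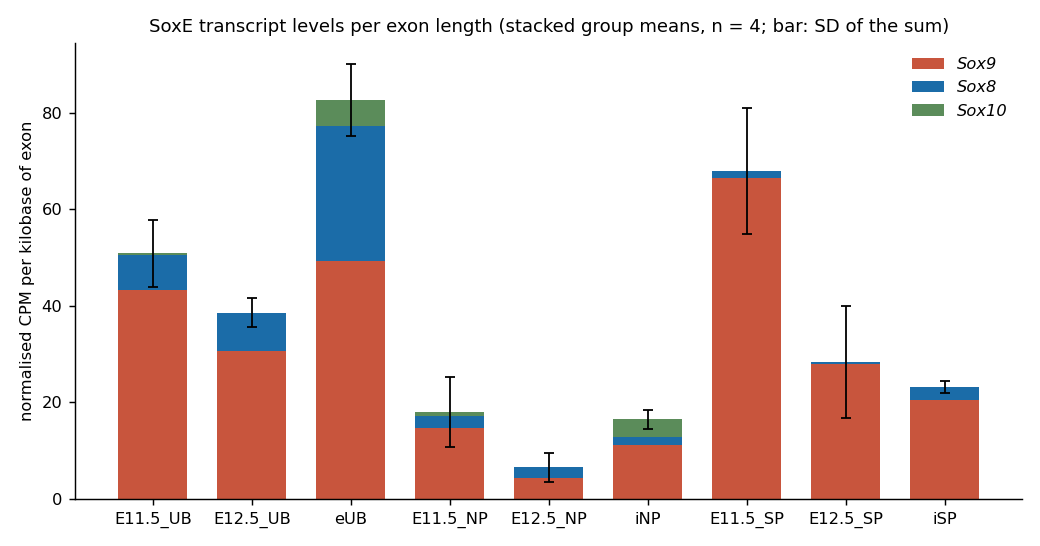
Stacked group means of *Sox9*, *Sox8* and *Sox10* as normalised CPM per kilobase of merged exon (vertical axis, from 0) in 9 groups of 4 libraries; the black bar is the SD of the sum. eUBs have the largest sum (82.6) and the highest *Sox8* level (27.9), and in both ex-fetu SP groups *Sox9* makes up about all of the sum (97.8% and 98.0% as means of library shares).

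The difference between mESC-derived and E11.5 cells was then compared between cell types, in models of 16 libraries. These 3 differences of differences share groups with each other. For *Sox8* the change from E11.5 to mESC-derived cells was larger in UB than in NP by 2.29 ± 0.22 on the log2 scale (SE; adjusted p = 3.8e-07; 47.1% of genes called) and larger in UB than in SP by 1.0 ± 0.31 (adjusted p = 0.0134; 47.4% of genes called). The latter was not called with 0.1 in place of 1 added before the log (0.88, adjusted p = 0.0607). It was lower in NP than in SP (-1.29 ± 0.33, adjusted p = 0.00697; 29.3% of genes called). For *Sox9* the UB and NP changes were not called different (0.55, interval -0.06 to 1.16, adjusted p = 0.127), whereas that of SP was below that of UB by 1.87 ± 0.18 (adjusted p = 4.4e-07) and below that of NP by 1.32 ± 0.29 (adjusted p = 0.00251). For *Sox10* the rises in UB and NP were not called different (0.71, interval -0.13 to 1.55, adjusted p = 0.155). Against SP, where it was too low to be tested alone, *Sox10* entered the models only through its higher groups, so that a difference was bound to be found. The values were 3.05 for UB and 2.35 for NP. The change between E11.5 and E12.5 was not called different between types for any member, with 2.21% of all genes called between UB and NP, 4.24% between UB and SP, and 2.69% between NP and SP. The adjusted p-values of these 8 tests were between 0.117 and 0.811. In a fit of all 36 samples the *Sox8* change differed between UB and SP (1.04, adjusted p = 0.0254).

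Genes of RET signalling and branching were set beside the higher *Sox8* of eUBs. Of 10 tested, 3 were higher in eUBs than in E11.5_UB, 1 was lower and 6 were not called, with a median log2 difference of 0.03 against 0.02 for all genes, of which 60.5% were called. *Ret* itself, a gene of the UB gate, rose by 0.38 ± 0.07 (adjusted p = 0.00142), from 361 to 369 normalised CPM in E11.5_UB to 420 to 498 in eUBs. *Etv4*, a transcription factor downstream of RET, fell by 0.50 (log2 difference -0.50 ± 0.08, adjusted p = 5.0e-04). *Wnt11*, a tip signal, differed by -0.11 (adjusted p = 0.511). Between UB stages, where *Sox9* fell, *Wnt11* rose by 0.87 (adjusted p = 0.00178) and *Etv5* by 0.53 (adjusted p = 0.0179). In all, 4 of 11 genes of the list were higher and 7 were not called, *Ret* (-0.12) and *Etv4* (0.01) among them, where 26.5% of all genes were called. In iSPs 8 of 11 were lower than in E11.5_SP and 2 higher, with a median of -1.33 against 0.04 for all genes, of which 67.6% were called.

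Cartilage collagen genes, which *Sox9* is known to regulate, were set beside it in stromal progenitors. *Col2a1* was at 485, 582, 456 and 207 normalised CPM in E11.5_SP and at 65.3, 30.2, 29.5 and 15.4 in E12.5_SP, a fall of 3.67 ± 0.42 on the log2 scale (log2 difference -3.67, adjusted p = 0.00218). *Col9a1* fell by 3.12 ± 0.23 (-3.12, adjusted p = 5.2e-04), from 199 to 385 in E11.5_SP to 23.1 to 39.4 in E12.5_SP. Both pairs of ranges were wide apart, whereas those of *Col9a2* overlapped, at 18.2 to 39.1 in E11.5_SP and 23.0 to 43.0 in E12.5_SP. *Sox5* and *Sox6*, partners of *Sox9* in cartilage, fell by 1.16 (adjusted p = 0.0107) and 2.20 (adjusted p = 0.00184). Of the 10 cartilage genes tested 3 were lower at E12.5 and 7 not called, with a median of -0.23 against 0.00 for all genes, of which 8.52% were called. Of 8 UB genes counted, 6 were lower as well, and the first E12.5_SP replicate had both the most *Sox9* and the most *Col2a1* of its group. Their part in the fall was not tested.

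In other comparisons the cartilage genes and *Sox9* were not always called together. iSPs had less *Sox9* than E11.5_SP and less *Col9a1* (-1.87 ± 0.18, adjusted p = 1.5e-05), with *Col2a1* not called different (-0.45, adjusted p = 0.168). Of 8 cartilage genes counted there, 4 were lower and 2 higher (67.6% of all genes called). In eUBs *Col2a1* was at 438, 507, 527 and 587 normalised CPM against 129 to 158 in E11.5_UB, a rise of 1.83 ± 0.10 (adjusted p = 4.3e-07), in a comparison in which *Sox9* was not called. There 4 of 8 cartilage genes were higher and 2 lower (60.5% of all genes called), with a median of 0.53 against 0.02. Between NP stages, where *Sox9* fell by 1.81, *Col2a1* differed by 0.16 (adjusted p = 0.715) and *Col9a1* by -0.38 (adjusted p = 0.141), with a median of -0.02 over 8 cartilage genes.

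**Figure D5:**
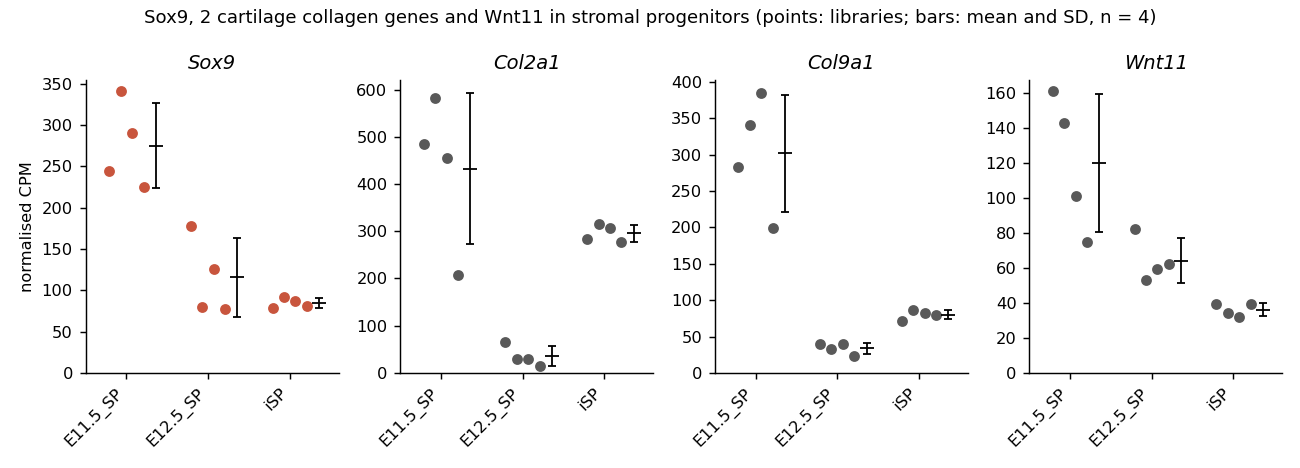
*Sox9*, the collagen genes *Col2a1* and *Col9a1*, and *Wnt11* in normalised CPM (vertical axis, from 0) in stromal progenitors; points are libraries in the order of replicates 1 to 4, bars the mean and SD of 4. *Sox9* and both collagen genes were higher in all E11.5_SP than in all E12.5_SP libraries, and *Col2a1* was at 278 to 315 in iSPs.

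Among the 16 other Sox genes measured, 7 could be tested between eUB and E11.5_UB without having passed the filter through 1 group only, as in all counts of lists given here. Passing through 1 group only means that no library of the other group reached 1 normalised CPM. Of the 7 genes, 4 were higher in eUB and 3 were not called, with a median of 0.45 against 0.02 for all genes. The share called was near that of all genes (60.5%). *Sox5* rose by 1.10 (adjusted p = 1.0e-05) and *Sox6* by 0.59 (adjusted p = 4.0e-04). *Sox14*, which passed through eUBs only, had 2.53 to 4.67 normalised CPM there and 0.0356 to 0.603 in E11.5_UB. *Sox11* and *Sox12*, both abundant in all groups, were not called. In iNPs 6 of 10 were higher than in E11.5_NP and 2 lower, where 64.7% of all genes were called. The higher ones included *Sox2*, which reached 1 normalised CPM in only 1 E11.5_NP library and 26.2 to 36.5 in iNPs. Its iNP libraries met the filter by themselves, so its call carries little weight. They also included the endothelial genes *Sox17* (1.33, adjusted p = 3.7e-04) and *Sox18* (1.66, adjusted p = 1.8e-04). Summed endothelial marker genes were at 65.9 to 118 in iNPs and 10.5 to 33.5 in E11.5_NP, although CD31+ cells had been gated out, and their part in the last 2 was not tested. The neural genes *Sox1* and *Sox3* passed the filter through iNPs only, with 5.57 to 6.35 and 4.33 to 9.61 normalised CPM there and at most 0.0779 and 0.429 in E11.5_NP. The abundant *Sox4* fell by 1.36 (adjusted p = 6.6e-06). In iSPs 3 of 9 were higher and 1 lower (67.6% of all genes called), the latter being *Sox13* (-1.44, adjusted p = 6.6e-06).

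Over the 36 libraries the 3 members were only weakly alike, with Pearson's r of log2(normalised CPM + 1) of 0.34 for *Sox8* and *Sox9*, 0.54 for *Sox8* and *Sox10* and 0.13 for *Sox9* and *Sox10*. These are descriptions across libraries that share groups and normalisation. Of 16001 genes, the 5 most like *Sox8* were *Map3k9* (r = 0.946), *Npffr1* (0.932), *Ablim3* (0.926), *Tmem170* (0.925) and *Pnpla6* (0.917). *Map3k9*, a kinase gene, was at a mean of 130 normalised CPM in eUBs, 60.7 in E11.5_UB and 4.67 in E12.5_SP. The 5 most like *Sox9* were *Cpeb2* (0.877), *Sema6a* (0.871), *Wnt11* (0.865), *Pvr* (0.864) and *Cdc42ep1* (0.860). *Sema6a*, a semaphorin gene, was at 289 in E11.5_SP, 260 in eUBs and 34.5 in E11.5_NP. The 5 most like *Sox10* were *Snrpn* (0.877), *Fam65b* (0.875), *Hmx3* (0.870), *Notumos* (0.864) and *Mphosph6* (0.864). *Hmx3*, a homeobox gene, was at 3.62 in eUBs and 1.04 in iNPs, and at 0.123 or less in the other groups.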

How the data were processed

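RNA of 36 samples of sorted cells was analysed, 4 in each of 9 groups. The authors trimmed the reads of a stranded mRNA library with Cutadapt 1.18, aligned them with STAR 2.7.3a and normalised them with edgeR 3.28.1. The counting program and its use of strand are not given in the sources used here, and the genome is written as GRCh38 although the gene identifiers are of mouse. The deposited signal values are CPM that the authors scaled by edgeR's normalisation factors. Columns of the authors' own comparisons (fold changes and p-values) were not used.

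Reads were recovered as multiples of the smallest value of a library (100% whole within 0.01). Genes with at least 1 normalised CPM in 4 of 8 libraries entered limma 3.58.1 under R 4.3.3 as log2(value + 1), where lmFit was followed by eBayes with a mean trend. P-values were adjusted by Benjamini-Hochberg over all genes tested, at a threshold of 0.05. Called means an adjusted p under it. Intervals are 95%. Differences of effects used 16 libraries. A log-scale test was used because the values are not counts; edgeR 4.0.16 on recovered reads was an alternative, as were other pseudocounts, filters, scalings, fits and each library left out. Over the 18 comparisons edgeR called 861 to 9402 genes and limma 850 to 9411. The script was tested on simulated data. Gene positions and sequences came from GENCODE vM21 (GRCm38), in which 99.5% of the genes listed were found.

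The members and gene lists were chosen with earlier results of these data known. Some genes of these lists are not reported here and were left out of their counts. Genes named are the members, genes of these lists, genes with overlapping exons, and the 5 with the highest r to each member. Samples of a group are separate mice or batches of differentiation. Whether same-numbered samples were paired is not given in the sources used here. Between E12.5_NP and E12.5_SP, deviations from group means correlated at 0.54 to 0.70 between same-numbered samples. In no other comparison did each sample correlate best with that of its own number. Depth was 13.0 to 52.5 M reads. Python 3.11.15 was used for the other steps.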

Additional observations from a re-analysis of the deposited data

Results flagged for a closer look

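*Sox8* in E12.5_SP replicate 1 (2.82 normalised CPM) lay far above the other 3 libraries of its group (1.24 to 1.41). It was the only such value in 27 sets of 4 libraries, of which chance gives about 1 in 20.

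Of 17 differences of effects between cell types that were tested over stage and origin, 7 were called, each for the change from E11.5 to mESC-derived cells on the log2 scale. For this change 47.1% (UB against NP), 47.4% (UB against SP) and 29.3% (NP against SP) of all genes were called. For the change between stages the share was 2.21% to 4.24%. For *Sox8* the change from E11.5 to mESC-derived cells differed between UB and NP by 2.29, between UB and SP by 1.0 and between NP and SP by -1.29. For *Sox9* it differed between UB and SP by 1.87 and between NP and SP by 1.32. For *Sox10* the values were 3.05 between UB and SP and 2.35 between NP and SP. In these *Sox10* was too low in SP and iSP cells to be tested there alone and entered the models only through its higher groups, so that a difference was bound to be found. The UB values for *Sox8* and *Sox9* include the reporter gate, from which the cells cannot be told apart.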

How the results depend on the processing

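The 46 member results include 6 of *Sox10* that passed the filter through the higher group alone, where a difference was bound to be found. Of 754 alternatives over the 46 results tested, 719 kept the direction and the side of the threshold. The settings below are those in which that was not so, with log2 differences, and the cause was not tested. Quantile normalisation gave 0.33 for *Sox9* in eUB against E11.5_UB, -0.80 and -0.63 for *Sox8* in iNP against E11.5_NP and E12.5_NP, 0.86 for *Sox8* in E11.5_NP against E11.5_SP (4 new calls) and -0.01 for *Sox8* between UB stages (a change of sign, not called). edgeR with TMM and with RLE factors called *Sox8* in iNP against E11.5_NP (-0.52 and -0.56) and not *Sox9* between NP stages (-1.75 in both), nor was this called without a filter (-1.81). The fit of all 36 samples called *Sox8* between SP stages (-0.94) and between E11.5_NP and E11.5_SP (0.72), and not *Sox9* between UB stages (-0.49) or in E11.5_UB against E11.5_SP (-0.62). It called 3141 genes between SP stages and 1572 between NP stages, against 1162 and 850.

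With the replicate block, *Sox8* was called between E11.5_NP and E11.5_SP (0.72, adjusted p = 0.0204), *Sox9* was not called between UB stages (-0.49, adjusted p = 0.0577), and 2365 genes were called between UB stages against 3648. Deviations of same-numbered samples correlated at -0.35 to 0.51 between E11.5_NP and E11.5_SP and at -0.18 to 0.04 between UB stages. The block changed no other member call. Its effect between E12.5_NP and E12.5_SP is given above.

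Leaving out 1 library gave -0.52 to -0.27 for *Sox8* in iNP against E11.5_NP, and between stages -0.04 to 0.22 for *Sox8* in UB, -0.59 to -0.40 for *Sox9* in UB, -1.20 to -0.78 for *Sox8* in SP, -1.55 to -1.15 for *Sox9* in SP and -2.18 to -1.50 for *Sox9* in NP. It gave -0.46 to 0.19 for *Sox10* in E11.5_UB against E11.5_NP and 0.46 to 0.88 for *Sox8* in E11.5_NP against E11.5_SP. Without replicate 1 of both E12.5 groups, chosen after seeing the data, *Sox9* was called in E12.5_UB against E12.5_SP (0.53). Depth limits mainly *Sox10*, which had at most 20 reads in each E12.5_UB, E11.5_SP, E12.5_NP, E12.5_SP and iSP library.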
